A study of Mus musculus with 5 samples.

Results

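The regions described here are the Ring1b ChIP-seq peaks of mouse embryonic stem cells that lay more than 5000 bp from every KAP1 peak. They were chosen from the deposited vehicle Ring1b peak list as peaks on chromosomes 1 to 19 that were narrower than 2000 bp and had no vehicle KAP1 peak within 5000 bp of either edge. The rule left 1077 of 13516 Ring1b peaks, or 7.97% (95% exact interval 7.52% to 8.44%), and 9.38% of the 11480 peaks that met the conditions on width and chromosome. They are called KAP1-distant peaks below. The other peaks of that width on those chromosomes fell into 8843 that overlapped KAP1 by at least 1 bp and 1560 KAP1-near peaks, which lay within 5000 bp without overlap. A further 185 peaks met the distance rule but were too wide, and 163 met it on other chromosomes or contigs, so these are not members.

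Chromatin immunoprecipitation with sequencing (ChIP-seq) was done on 5 libraries, 1 per group, from embryonic stem cells grown on irradiated mouse embryonic fibroblast feeders. KAP1 was mapped in KAP1 fl/fl cells given vehicle (ethanol), with KAP1 fl/fl cells given 4-hydroxytamoxifen as the control library. Ring1b was mapped in Ring1b fl/fl cells given vehicle, with Ring1b fl/fl cells given 4-hydroxytamoxifen as the control library. Exposure to vehicle or drug lasted 24 h and was followed by 48 h of culture. That culture is described as with tamoxifen for the Ring1b fl/fl line and without it for the KAP1 fl/fl line. The vehicle Ring1b library is itself labelled as without 4-hydroxytamoxifen. The fifth library was Ring1b in KAP1 fl/fl cells given 4-hydroxytamoxifen, and its peaks make up what is termed the knockout list. The vehicle groups keep the conditional alleles and stand for the undeleted state. KAP1 and Ring1b were therefore mapped in different lines, and distance between their peaks says nothing about any single cell. Peak lists give no expression, so the labelled cell type could not be checked against RNA of its markers. Ring1b peaks of any kind touched the promoters of 3 of 6 stem cell marker genes (Pou5f1, Sox2 and Esrrb), and KAP1-distant peaks touched none of the 6.

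Ring1b is a ubiquitin ligase subunit of Polycomb repressive complex 1, which marks histone H2A and keeps genes of later development silent in embryonic stem cells, often at promoters rich in CpG dinucleotides. KAP1, encoded by Trim28, is a corepressor that KRAB zinc finger proteins bring to DNA and that gathers a histone methyltransferase there. It is known in these cells for silencing retrotransposons.

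The distances and widths that chose the peaks are given as a description. The closest accepted peaks lay 5025 bp from KAP1 in Hoxc8 and 5038 bp from KAP1 beside Kif3a, and the closest refused ones lay 4999 bp away in Bmi1 and 4989 bp away near En1. The widest accepted peaks, at Gm5294 and in Slc24a3, were both 1999 bp wide, and the narrowest of those refused for width alone were 2003 bp at Ankrd34b and 2004 bp at Ccser1. The median distance from KAP1 was 19330 bp, and the range ran from 5025 to 2723860 bp. Of the 1077 peaks, 308 lay at most 10 kb from KAP1 and 149 lay more than 100 kb away. "Distant" thus covers peaks just past the limit as well as isolated ones.

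Promoter sequences are shown for 4 of the highest-scoring KAP1-distant peaks that touched a promoter, because their CpG content differs widely, and for 2 genes of an interferon zeta block described further on. Each runs from 250 bases before to 50 bases after the gene start, is taken from RefSeq on GRCm38.p6, and is written 5′ to 3′ on the gene's strand with every CG dinucleotide in capitals.
Sidt1, chr16:44332789-44333088, minus strand: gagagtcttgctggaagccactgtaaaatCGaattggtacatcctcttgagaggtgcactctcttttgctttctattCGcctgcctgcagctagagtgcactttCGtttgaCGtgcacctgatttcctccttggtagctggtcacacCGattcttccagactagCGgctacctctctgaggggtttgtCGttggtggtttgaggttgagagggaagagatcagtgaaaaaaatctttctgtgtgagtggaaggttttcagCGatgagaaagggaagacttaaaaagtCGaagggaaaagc
Col19a1, chr1:24587388-24587687, minus strand: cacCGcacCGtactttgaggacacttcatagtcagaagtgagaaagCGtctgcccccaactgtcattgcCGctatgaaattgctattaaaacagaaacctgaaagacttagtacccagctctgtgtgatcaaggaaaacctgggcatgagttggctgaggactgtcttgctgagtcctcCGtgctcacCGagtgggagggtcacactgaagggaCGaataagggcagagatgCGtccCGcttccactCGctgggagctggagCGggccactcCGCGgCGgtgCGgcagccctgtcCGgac
Pparg, chr6:115360894-115361193, plus strand: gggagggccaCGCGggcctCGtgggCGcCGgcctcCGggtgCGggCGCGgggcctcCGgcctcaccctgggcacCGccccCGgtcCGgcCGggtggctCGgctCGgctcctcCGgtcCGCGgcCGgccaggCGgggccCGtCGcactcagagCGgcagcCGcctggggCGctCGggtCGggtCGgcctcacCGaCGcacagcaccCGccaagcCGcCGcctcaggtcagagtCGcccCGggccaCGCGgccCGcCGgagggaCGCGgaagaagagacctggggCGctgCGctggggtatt
Rprml, chr11:103649259-103649558, plus strand: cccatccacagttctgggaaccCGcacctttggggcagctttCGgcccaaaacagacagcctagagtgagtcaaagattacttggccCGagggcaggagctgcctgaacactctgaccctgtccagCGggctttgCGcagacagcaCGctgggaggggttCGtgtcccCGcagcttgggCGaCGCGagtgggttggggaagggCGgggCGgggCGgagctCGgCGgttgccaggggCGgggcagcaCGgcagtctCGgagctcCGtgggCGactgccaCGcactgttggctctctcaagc
Gm13285, chr4:88800070-88800369, plus strand: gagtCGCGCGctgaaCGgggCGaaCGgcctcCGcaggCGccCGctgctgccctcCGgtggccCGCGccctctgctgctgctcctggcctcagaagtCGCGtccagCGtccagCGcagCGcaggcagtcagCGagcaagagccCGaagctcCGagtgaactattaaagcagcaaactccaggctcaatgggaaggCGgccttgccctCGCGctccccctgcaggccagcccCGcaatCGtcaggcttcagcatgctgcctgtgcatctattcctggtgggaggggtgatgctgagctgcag
Gm13288, chr4:88805281-88805580, plus strand: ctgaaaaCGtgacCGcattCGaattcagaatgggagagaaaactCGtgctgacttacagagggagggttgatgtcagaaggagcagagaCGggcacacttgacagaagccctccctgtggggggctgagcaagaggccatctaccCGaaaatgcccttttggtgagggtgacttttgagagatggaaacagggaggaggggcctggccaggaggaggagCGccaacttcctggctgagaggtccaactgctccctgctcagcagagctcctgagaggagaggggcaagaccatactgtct

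The Sidt1 window held 9 CG dinucleotides, that of Col19a1 16, that of Rprml 22 and that of Pparg 44. Over the 305 RefSeq promoter windows (273 genes) that KAP1-distant peaks touched, the median was 20 CG dinucleotides per 300 bases, with a range of 1 to 59. It was 20 for KAP1-near peaks, 24 for KAP1-overlapping peaks and 14 over all 19504 windows used, none of them on chromosome 18. Windows with no Ring1b peak had a median of 9, and those with neither protein a median of 3. CG reads the same on both strands and was counted once; at least 1 was present in 95.8% of all windows, and 10 or more in 59.2%. The windows at KAP1-distant peaks held 10 or more in 86.6% (exact interval 82.2% to 90.2%), beside 91.8% (90.8% to 92.7%) at KAP1-overlapping peaks. Promoters with KAP1-distant Ring1b were thus rich in CG like other Ring1b promoters, with a median 4 below those where KAP1 overlapped. Windows of 1 gene can overlap each other, so they are not independent.

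**Figure D1:**
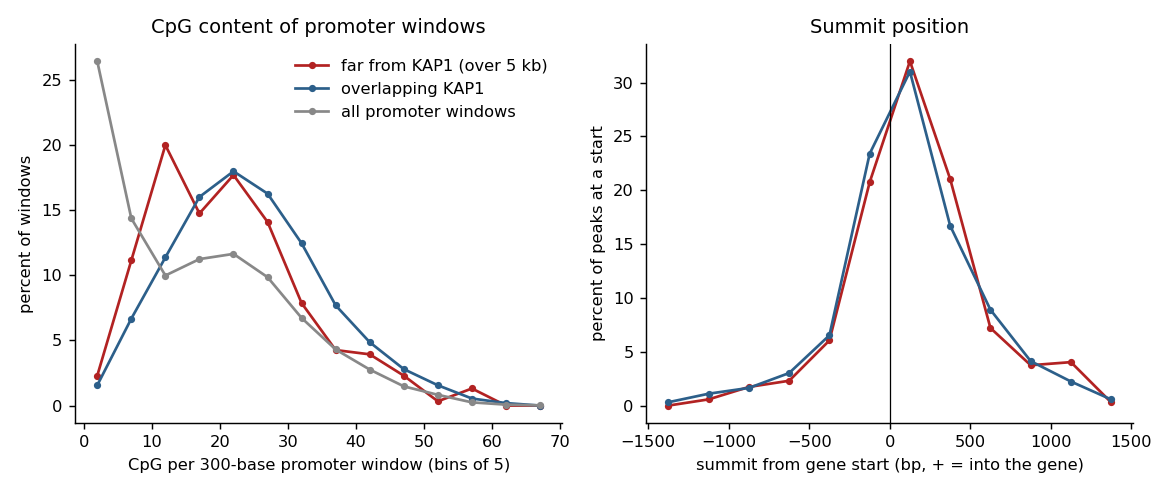
Left, the percent of RefSeq promoter windows of 300 bases in each bin of 5 CG dinucleotides, for windows touched by KAP1-distant Ring1b peaks (red, 305 windows), by KAP1-overlapping Ring1b peaks (blue, 3146 windows) and for all windows (grey, 19504). Right, the percent of Ring1b peaks by distance of the summit from the nearest gene start in bp, with positive values inside the gene; both classes peak just past the start, with medians of 120 bp (red, 347 peaks) and 69 bp (blue, 3539 peaks).

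At gene starts, the summits of KAP1-distant peaks lay close to the start. The median summit was 120 bp into the gene, 68.6% of the 347 peaks had their summit downstream of the start, and 79.8% lay within 500 bp of it. For KAP1-overlapping peaks the median was 69 bp into the gene, with 77.8% within 500 bp. KAP1-near peaks were spread more widely, with 45.1% within 500 bp.

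A smaller share of KAP1-distant than of KAP1-overlapping peaks lay at promoters. Of the 1077, 429 touched a promoter window of the deposited tables, which reach 1 kb to each side of a transcript start and are longer where the starts of neighbouring genes merge. That is 39.8% (36.9% to 42.8%), beside 35.4% (33.0% to 37.8%) of KAP1-near and 50.6% (49.6% to 51.7%) of KAP1-overlapping peaks. A further 391 (36.3%) lay in a gene outside those windows, and 257 (23.9%) touched no RefSeq gene, beside 16.9% of KAP1-overlapping peaks. The deposited windows all carry KAP1 or Ring1b by construction, so these shares compare Ring1b classes with each other only. With 1 library per group no difference was tested, and every interval covers counting error over peaks or genes only. Of the 363 members that touched neither a promoter window nor a protein-coding gene, 69 lay in a long non-coding RNA gene. The members between genes had a median distance of 24890 bp from the nearest protein-coding gene.

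**Figure D2:**
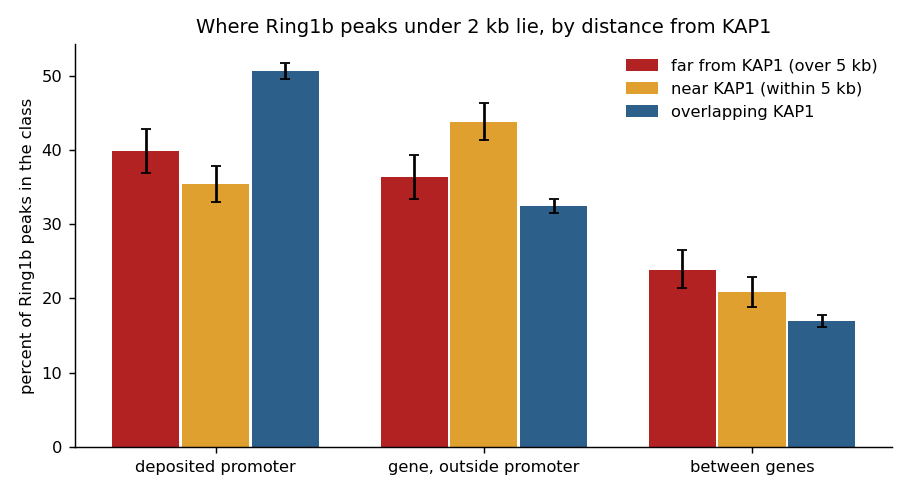
The percent of Ring1b peaks under 2 kb (y axis) that touched a deposited promoter, lay in a gene outside promoters or lay between genes (x axis), for KAP1-distant (red), KAP1-near (orange) and KAP1-overlapping (blue) peaks. Bars start at 0 and error bars are exact 95% intervals over peaks; promoters took 39.8% of the KAP1-distant and 50.6% of the KAP1-overlapping peaks.

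The promoter share was lower than that of KAP1-overlapping peaks at each width. Among KAP1-distant peaks, 27.1% of those under 500 bp touched a promoter, 45.1% of those from 500 to under 1000 bp and 56.9% of those of 1000 bp or more. The corresponding shares of KAP1-overlapping peaks were 35.3%, 61.0% and 68.0%. With distance from KAP1 the share was 26.9% (22.1% to 32.3%) at 5 to 10 kb, 42.1% at 10 to 20 kb, 47.5% at 20 to 50 kb, 41.4% at 50 to 100 kb and 49.0% (40.7% to 57.3%) beyond 100 kb. The peaks just past the distance limit were therefore the ones found least at promoters.

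Peak scores are 10 times the −log10 p that the authors' peak caller gave, and they rank peaks within the Ring1b list only. Among the peaks under 2000 bp, KAP1-distant peaks were not the weak end. The median over the whole Ring1b list, wide peaks included, was 116. The median score of KAP1-distant peaks was 110, beside 78.3 for KAP1-near and 99.9 for KAP1-overlapping peaks. The median width was 538 bp, beside 392 and 532 bp. Scores of 1000 or more were reached by 60 members, or 5.57% (4.28% to 7.11%), by 1.86% of KAP1-near peaks and by 4.25% (3.84% to 4.69%) of KAP1-overlapping peaks. At the other end, 46.5% of members scored under 100. Wider peaks had higher scores, and within each width range the medians of KAP1-distant and KAP1-overlapping peaks were close, at 65.2 and 68.1 under 500 bp, 148 and 131 from 500 to under 1000 bp, and 546 and 524 from 1000 bp up. By place, the median score of members was 170 at promoters, 84.35 in genes and 73.7 between genes.

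**Figure D3:**
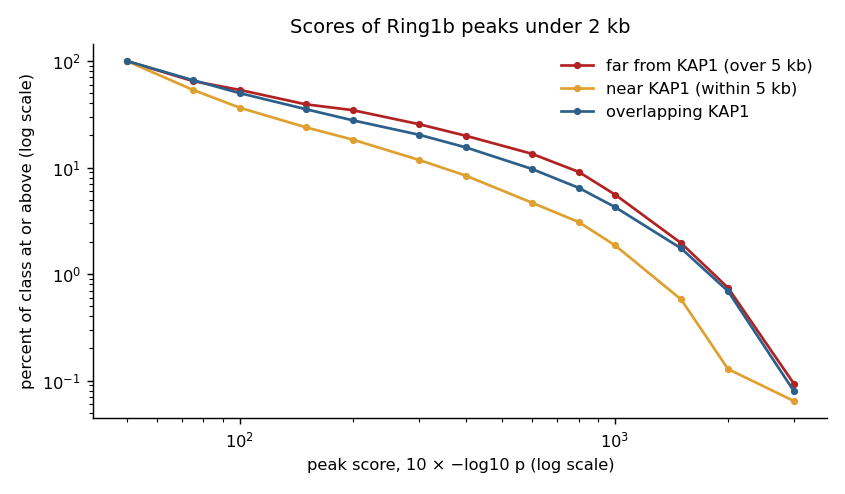
The percent of each class of Ring1b peaks under 2 kb at or above a given score (y axis, log scale) against the score, 10 times −log10 p (x axis, log scale). The curve of KAP1-distant peaks (red) lies on or just above that of KAP1-overlapping peaks (blue) from a score of 100 up, and the curve of KAP1-near peaks (orange) lies below both; at 1000 the values are 5.57%, 4.25% and 1.86%.

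Of the 60 members with a score of 1000 or more, 45 touched a promoter, 11 lay in genes outside promoters and 4 lay between genes. The highest-scoring one covered the promoter of Sidt1, a gene for a membrane protein that binds double-stranded RNA, with a score of 3149 (chromosome 16, 44331580 to 44333394). It lay 5819 bp from KAP1. The next, with a score of 2997, lay 12501 bp from Pou3f3, a POU transcription factor gene of neural development (chromosome 1, 42712712 to 42714599). The promoter of Piezo2, the mechanically gated ion channel of touch sensation, scored 2602 and lay 108725 bp from KAP1. A peak inside Mef2c, a transcription factor gene of muscle, heart and neurons, scored 2485 and lay 188490 bp from KAP1. The promoter of Col19a1, which encodes a fibril-associated collagen, scored 2432, and a peak inside Ctnnd2, a delta-catenin gene of neurons, scored 2208. These 6 peaks were scattered over 5 chromosomes, and none met a knockout-list peak.

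The other 4 of the 10 highest-scoring members were of the same kinds. The promoter of Bicc1, an RNA-binding protein gene of left-right patterning and kidney tubules, scored 2152. A peak between genes, 9961 bp from Hoxc13, the last gene of the Hoxc cluster and a regulator of hair, scored 2131. The promoter of Pparg, the nuclear receptor that directs fat cell formation, scored 1869 and lay 108184 bp from KAP1. The promoter of Rprml, a gene related to Reprimo, scored 1800 and lay 5740 bp from KAP1. All 10 were at least 1458 bp wide, and 6 of them lay more than 50 kb from KAP1.

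At the level of genes, 6031 of 21031 protein-coding genes (28.7%) had a Ring1b peak of any kind at a promoter. Of all genes 373 (1.77%), or 6.18% of those 6031, had a KAP1-distant peak there. Genes with such a peak had a median length of 43524 bp, beside 31289 bp for genes with a KAP1-overlapping peak, 37752 bp for genes with a Ring1b peak of 2000 bp or wider and 17729 bp for all. The members touched 381 of the 884 promoter windows that the authors' deposited tables class as Ring1b only, and 1 window classed as shared, at Peg13, an imprinted non-coding gene. The rule sets most of this, since it leaves out peaks near KAP1. Over whole genes the authors' deposited tables put 176 of the 373 genes into the Ring1b only class and 166 into the shared class. Of the others, 4 were classed as KAP1 only despite their Ring1b peak, 1 had more than 1 class and 26 had none. In the shared class, 44.5% of the genes with a KAP1-distant Ring1b peak at the promoter were thus listed with KAP1 somewhere else along the gene.

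Genes of neurotransmitter reception recurred at these promoters. Of 56 receptor genes for acetylcholine, monoamines and adenosine, 8 had a KAP1-distant peak at the promoter, or 14.3% (6.38% to 26.2%), beside 1.77% of all genes. The list was rich in Ring1b of any kind, which lay at 33 of the 56 promoters (58.9%), beside 28.7% of all genes. KAP1-overlapping peaks lay at 14 of them. The KAP1-distant peaks scored 1338 at Htr6 and 1279 at Htr1a, both serotonin receptors, 854 at the serotonin receptor Htr7 and 842 at the dopamine receptor Drd5. The histamine receptor Hrh1 scored 806, the adrenergic receptor Adra1a 770, the muscarinic receptor Chrm2 761 and the serotonin receptor Htr1f 306. Their median score was 824, beside 235 over all 373 genes with such a peak, and 7 of the 8 peaks were at least 1000 bp wide, beside 158 of the 373. A further 5 of 50 receptor genes for GABA, glycine and glutamate had a KAP1-distant peak, or 10.0% (3.33% to 21.8%). Here too 31 of the 50 carried some Ring1b peak at the promoter, and 16 a KAP1-overlapping one. The kainate receptor Grik1 scored 1652, and the metabotropic glutamate receptor Grm7 scored 1624 at 634542 bp from KAP1. Grm3 and Gabrb1 scored 639 and 304.

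Of 92 potassium channel genes, 5 had a KAP1-distant peak at the promoter (5.43%, 1.79% to 12.2%), and 58 carried some Ring1b peak there. The inward rectifier Kcnj3 scored 866 and Kcnh7 scored 620, while Kcnj5, Kcnt1 and Kcnip1, which encodes a channel-interacting protein, scored between 92.2 and 109. None of 40 sodium and calcium channel genes had one (exact upper limit 8.81%), which in a list of this size is near the 1.77% of all genes. Of these 40, 22 carried some Ring1b peak at the promoter. Among axon guidance genes 5 of 71 had one (7.04%, 2.33% to 15.7%), and 56 carried some Ring1b peak at the promoter. Sema3a, a secreted repellent of growing axons, scored 772, Robo2, a receptor for Slit proteins, 732.5, and the ephrin receptor gene Epha3 510. Epha8 scored 497 and Sema4f 53.65.

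Of 44 collagen genes, 7 had a KAP1-distant peak at the promoter, or 15.9% (6.64% to 30.1%), and 24 carried some Ring1b peak there. After Col19a1, Col26a1 scored 1011 and Col25a1, which encodes a membrane collagen of neurons, scored 661. Col11a1 and Col1a2, both genes of fibrillar collagens, scored 170 and 109, and Col6a6 and Col23a1 scored 105 and 98.8. Col1a2 and Tcf21, a mesenchymal transcription factor with a score of 161, were the 2 of 25 fibroblast marker genes with a member at the promoter, and 14 of the 25 carried some Ring1b peak there. The cells were grown on fibroblast feeders, whose part in these peaks was not tested.

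Signalling and nuclear receptor genes were also among the promoters. Of 62 Wnt, Fgf, Bmp and Gdf ligand genes, 3 had a KAP1-distant peak at the promoter (4.84%, 1.01% to 13.5%), and 45 carried some Ring1b peak there. Wnt16 scored 1388, Bmp3 692 and the growth factor gene Fgf2 593. Of 47 nuclear receptor genes, 3 had a KAP1-distant peak there (6.38%, 1.34% to 17.5%), and 29 carried some Ring1b peak. The intervals of both lists include the 1.77% of all genes. Pparg scored 1869, Rorb, a receptor of retina and cortex development, 1493 at 315453 bp from KAP1, and Ppara, a regulator of fatty acid oxidation, 283. Among 364 solute carrier genes 139 carried some Ring1b peak at the promoter, and 13 had a KAP1-distant one (3.57%, 1.92% to 6.03%). These 13 were led by the glutamate transporter Slc1a2 (1091), Slc16a11 (1008) and the noradrenaline transporter Slc6a2 (946).

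Several lists had no KAP1-distant peak at a promoter. With 1.77% over all genes, a count of 0 in lists of 80 genes or fewer is near the background. None of 39 Hox genes had one (exact upper limit 9.03%), while 38 had some Ring1b peak there and 36 had one of 2000 bp or wider, which the width rule leaves out. The count was also 0 for 47 homeobox genes of the LIM, Nkx, Pax, Dlx and sine oculis families (upper limit 7.55%), of which 40 had Ring1b at the promoter and all 40 had a wide peak. None of 44 forkhead, 19 Sox, 23 cadherin and 40 pluripotency-associated genes had one, with upper limits of 8.04%, 17.6%, 14.8% and 8.81% and with Ring1b of any kind at 32, 17, 10 and 20 of them. Olfactory receptor, vomeronasal receptor and ribosomal protein genes, at 0 of 1108, 0 of 353 and 0 of 80, had little Ring1b of any kind, with 2, 0 and 9 genes. Their upper limits were 0.332%, 1.04% and 4.51%, so the olfactory and vomeronasal lists lay below the 1.77% of all genes. The remaining lists had 1 to 3 genes each. Sycp1, which encodes a protein of the meiotic synaptonemal complex, scored 583 as 1 of 44 germline genes. Psmb8, an immunoproteasome subunit, scored 701 as 1 of 39 proteasome genes. Ndufa5 of the respiratory chain and the keratin gene Krt86 scored 81.0 and 59.8, and Tcf21 was the 1 gene of 37 bHLH regulators. Of 365 numbered zinc finger genes 3 had one (0.822%), and these were Zfp9 at 880, Zfp558 at 63.9 and Zfp618 at 59.8.

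**Figure D4:**
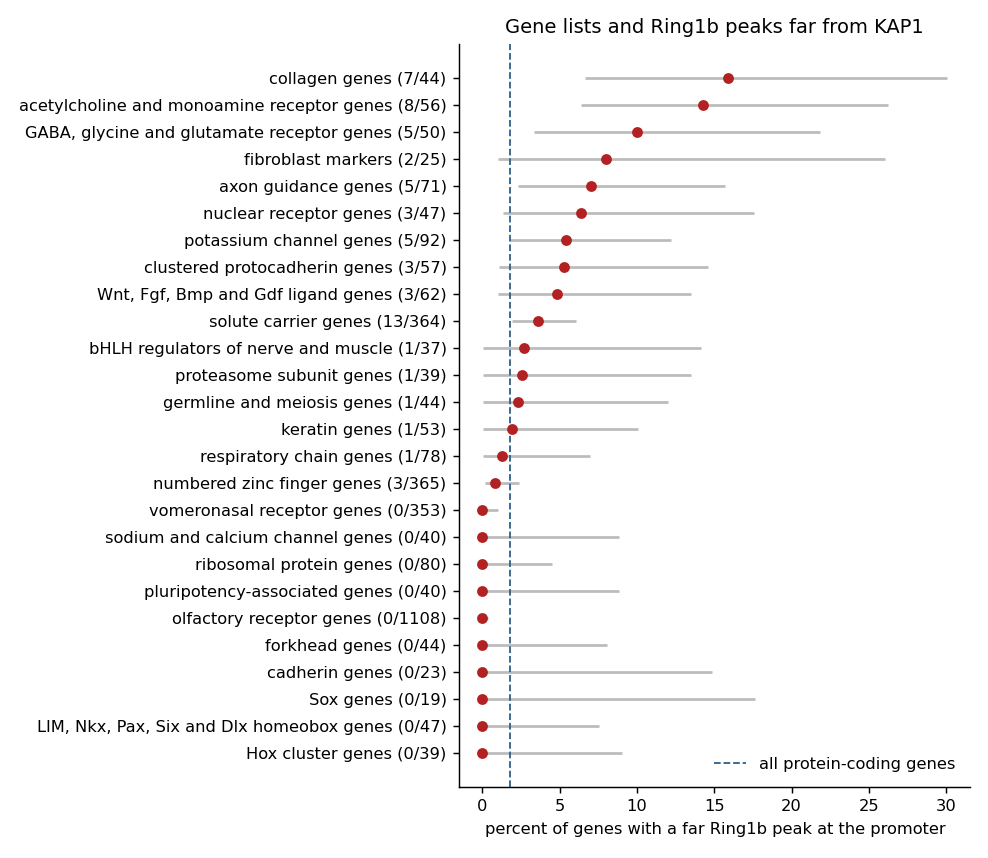
The percent of genes in each of 26 gene lists with a KAP1-distant Ring1b peak at a promoter (x axis; red points, with counts beside the list names and grey lines for exact 95% intervals over genes). The dashed line marks 1.77% over all protein-coding genes; collagen genes (15.9%) and acetylcholine and monoamine receptor genes (14.3%) stand highest, and 10 lists stand at 0.

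Most KAP1-distant peaks stood alone. Joined at gaps of up to 20 kb, the 1077 peaks made 908 runs, of which 785 held a single peak and 10 held 4 or more. Another Ring1b peak of any kind lay within 5000 bp of 29.3% of the members, beside 70.6% of KAP1-near and 32.9% of KAP1-overlapping peaks. A Ring1b peak of 2000 bp or wider lay that close to 7.89% of members, beside 26.8% and 3.75%. Gata3, a transcription factor gene of T cells and the inner ear, showed such a fringe. The gene held 4 members, with scores from 52.5 to 450, among 6 Ring1b peaks of which the widest was 11319 bp. Sall2, a zinc finger transcription factor gene of neural development, also held 4 members, scoring 55.0, 257, 596 and 56.4 within chromosome 14, 52313663 to 52317303, and these were all its Ring1b peaks. Runs of 4 also lay at Tcf21 and at the imprinted growth regulator Grb10, and a run of 5 lay at Zic5 and Pcca. Runs of 5 and 6 weak members, scoring 50.4 to 123, lay on chromosome 1 from Mroh2a and Hjurp to Trpm8, and 2 runs of 6 lay in an interferon gene block.

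The loci that held most members were Gm37013, Gm38666 and Gm38667, which RefSeq draws across the protocadherin cluster of chromosome 18. Protocadherins are cell adhesion molecules that give single neurons distinct surfaces. Each of these loci held the same 8 members, with scores from 51.9 to 264. The highest lay in Pcdhb19. They lay among 57 Ring1b peaks within Gm37013, whose highest score was 3100. Of 57 clustered protocadherin genes, Pcdhb1, Pcdha2 and Pcdhga6 had a member at the promoter, with scores of 107, 56.9 and 56.2. Protocadherin genes are close copies of each other, so the gene to which each of these peaks belongs is uncertain.

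The densest high-scoring group lay in a block of 15 interferon zeta genes on chromosome 4 (88750001 to 88815000). Interferon zeta, or limitin, is a type I interferon of mice. The block held 21 Ring1b peaks with a median score of 740 and a highest score of 1266. Of these, 12 were KAP1-distant, 5 KAP1-near, 2 KAP1-overlapping and 2 wider than the limit. KAP1-distant peaks scored 1266 at Gm13288, 1261 at Gm13285, 1143 at Gm13287 and 1023 at Gm13279. The only KAP1 peaks in the block were 2 with scores of 50.9 and 51.5, near the lowest score of the KAP1 list, 50.0. The class of the neighbouring Ring1b peaks thus turned on these low-scoring KAP1 calls. Aligned over their whole length, the promoter windows of the 15 genes were 47.8% to 100% identical with a median of 52.2%. At least 95% identity was reached by 19 of the 105 pairs, 7 of them fully. Windows are cut at annotated gene starts, so copies can hold the same sequence at shifted positions. The end of the Gm13279 window repeats the start of the Gm13285 window, yet that pair counted as 54.7% identical. A low value thus does not show that promoters differ in sequence. Gm13285 and Gm13288, printed above, hold 25 and 7 CG dinucleotides. How reads matching several copies were handled is not stated in the labels, so the gene to which a peak belongs is uncertain among the near-identical copies.

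Chromosome 14 carried the most KAP1-distant peaks, 98, which was 24.7% (20.5% to 29.2%) of its Ring1b peaks under 2000 bp. On the other 18 autosomes the share ran from 6.34% on chromosome 17 to 13.8% on chromosome 6. The excess sat in 2 stretches, from 35 to 72 Mb and over the last 18.7 Mb. Their borders were set after the KAP1 counts per Mb were seen. Sparse KAP1 and a high share of KAP1-distant peaks within them therefore follow in part from that choice. The stretches held 76 of the 98 members, and 80.0% of their narrow Ring1b peaks were KAP1-distant, beside 7.28% on the rest of chromosome 14. KAP1 peaks were sparse there, at 0.688 per protein-coding gene, beside 5.92 on the rest of the chromosome and 4.13 on the other 18 autosomes. Ring1b peaks stood at 0.212 per gene in the stretch from 35 to 72 Mb and at 0.718 per gene in the last 18.7 Mb, beside 1.08 on the rest of the chromosome and 0.661 on the other autosomes. The cause was not tested.

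**Figure D5:**
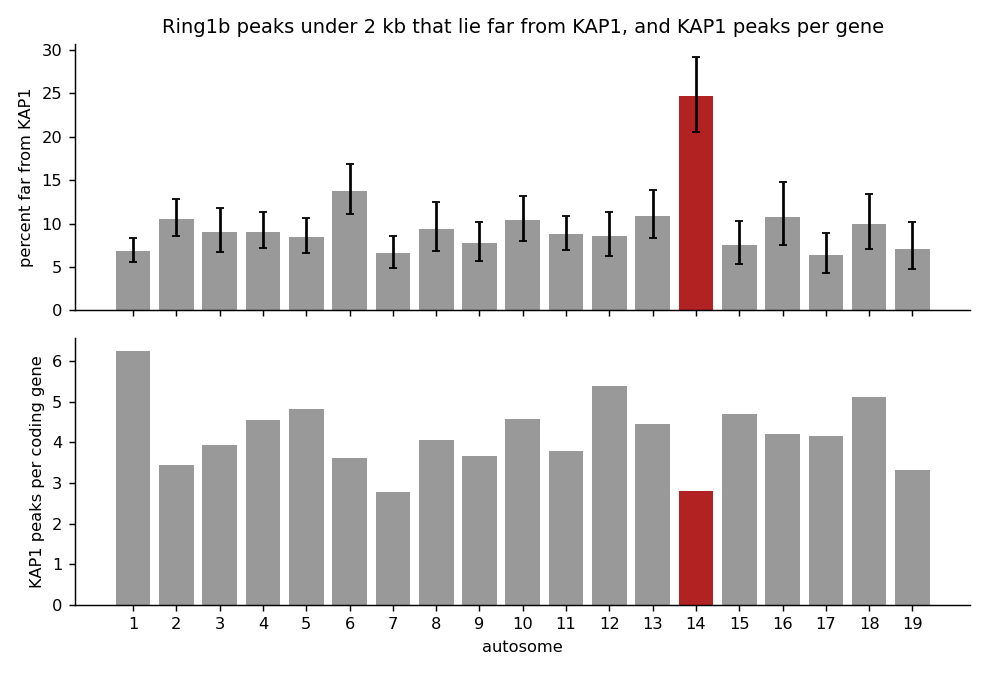
For each autosome (x axis), the percent of Ring1b peaks under 2 kb that were KAP1-distant (top, with exact 95% intervals over peaks) and the number of KAP1 peaks per protein-coding gene (bottom). Chromosome 14 is in red; its share of 24.7% lies above those of the other autosomes, and its 2.80 KAP1 peaks per gene lie at the low end beside the 2.77 of chromosome 7.

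The members in these stretches resembled the rest in score, with a median of 119 beside 109 elsewhere. Their median width was 784.5 bp, beside 538 bp over all members. Promoters were touched by 38 of the 76 (50%), beside 39.8% of all members. The strongest there was at Adra1a (770), followed by Gjb2 (710), which encodes a connexin of the inner ear, Sall2 (596) and Slitrk5 (550 and 540), a membrane protein gene of neurons. In these stretches, whose borders were set with the KAP1 counts known, lay all 5 members farthest from KAP1. They were a peak at the promoter of Gpc5, a glypican gene, with a score of 100.07 at 2723860 bp from KAP1, a second one 51041 bp from Gpc5 with a score of 96.05, and 3 at Slitrk5 between 685132 and 690827 bp from KAP1. The count of members beyond 100 kb, 149, included 25 from these stretches.

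KAP1-distant peaks overlapped 3 of 919 RefSeq hairpins on the autosomes, at 2 places, and KAP1-overlapping peaks overlapped 23, in classes of 1077 and 8843 peaks. A peak with a score of 872 covered Mir196a-2 in the Hoxc cluster (chromosome 15, 102971980 to 102973892), 5201 bp from KAP1 and close to the distance limit. Its microRNA targets Hox genes. A peak with a score of 96.8 in Cercam covered Mir219b and most of Mir219a-2, which overlap on opposite strands. The microRNA miR-219 is known for the formation of oligodendrocytes. The mature 5p sequences are given with the seed, bases 2 to 8, in capitals, because the seed decides the targets; they share no seed.
miR-196a-5p: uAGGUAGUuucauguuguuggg
miR-219a-5p: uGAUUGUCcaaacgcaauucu
miR-219b-5p: aGAUGUCCagccacaauucucg

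The last comparison set the members against the knockout list, which the rule did not use. None of the 1077 KAP1-distant peaks overlapped 1 of its 8928 peaks, beside 0.326% of all Ring1b peaks. A count of 0 allows a share of up to 0.279% at 3 counts and of up to 0.342% by the exact interval, which includes the share of all Ring1b peaks. KAP1-near peaks did so in 1 case, and 42 KAP1-overlapping peaks did (0.475%, 0.343% to 0.641%). A difference of the members from all Ring1b peaks was thus not detectable. Within 1000 bp of a knockout-list peak lay 5 members. They were in Antxr2 (score 121), at the promoters of Ptbp2 (119) and Npy5r (114), in Edem3 (66.0) and 22750 bp from Abr (56.6), and they were singled out after their values were seen. The knockout list comes from the other line and a different control pairing, so genotype and line cannot be told apart.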

How the data were processed

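Peaks came from 3 peak lists and 6 gene tables that the authors deposited. The submitters' processing notes name MACS 1.4.2, Bowtie2, bedtools 2.16.2 and CASAVA 1.8.2, and the builds mm10 and GRCm38. Per the file headers, each list was called on 1 library against another, namely vehicle KAP1 against tamoxifen KAP1, vehicle Ring1b against tamoxifen Ring1b in Ring1b fl/fl cells, and Ring1b of tamoxifen KAP1 fl/fl cells against Ring1b of tamoxifen Ring1b fl/fl cells. The deposited score is 10 times −log10 p of the peak caller, per the file headers. It cannot be compared between lists, and it depends on read depth, a value not given in the sources used here. A wide or dense region can be split into several peaks, which raises counts of narrow peaks.

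Distances are bases between peak edges, and overlap means at least 1 bp. Gene names and coordinates came from a RefSeq gene table on GRCm38.p6 without strand or exons, and gene starts with strand from its promoter table. Of 13039 deposited promoter regions, 12939 matched by accession and 100 did not. A region can merge the windows of several genes (1442 did), and each such gene within 1 kb was counted. The classes, shares and exact Clopper-Pearson intervals at 95% were computed with Python 3.11.15, pandas 2.3.3 and scipy 1.17.1, and Biopython 1.88 aligned promoter windows. The computations were tested on simulated peaks. For the knockout list, the limit for a share of 0 is also given as 3 counts of the total. Each group has 1 library, so no test was run.

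The members and gene lists were chosen with earlier results of these data known. Named peaks were the 10 highest-scoring members, the 5 farthest from KAP1, up to 3 genes per list with the highest score, any meeting a knockout-list peak, the 2 on each side of each threshold and the 5 genes holding most members. Further genes of the shorter lists, runs, the interferon block, chromosome 14 and microRNAs were chosen after values were seen. Some genes that meet these rules are not reported here. Alternatives were other distances, widths, chromosomes, score limits, promoter and gene borders.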

Additional observations from a re-analysis of the deposited data

How the results depend on the processing

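Of 62 alternative values, 33 stayed within the interval or 1.5 times of the reported one and 29 moved further. Requiring only no overlap with KAP1 gave 2637 peaks, with a median score of 87.2, a median width of 435 bp and 4.22% of genes. A distance of 2000 bp gave 35.5% at promoters and 2.12% of genes, and one of 10000 bp gave 45.0%, 21.3% between genes and 1.42% of genes. Without the width limit the median score was 136, the median width 682 bp, the promoter share 44.4% and the gene share 2.34%, and on all chromosomes the gene share was 2.08%. Against the upper 50% of KAP1 scores there were 2917 members, with 45.7% at promoters, 19.3% between genes and 5.57% of genes. The upper 50% of Ring1b scores left 517 members, with a median score of 323, a median width of 1032 bp, 51.5% at promoters, 16.8% between genes and 1.20% of genes. Counting 5000 bp around promoter windows gave 45.8% at promoters, genes extended by 5000 bp left 16.5% between genes, and a knockout-list peak within 1000 bp was found for 0.464%. Over genes with a deposited promoter the gene share was 2.84%. Without chromosome 14, an alternative chosen after seeing the data, it was 1.59%, and the other 6 values stayed as before within their interval or 1.5 times. How many peaks are members thus depends most on which KAP1 peaks are accepted. No paired analysis was possible because each group has 1 library. With read depths unknown, a KAP1 peak missed for lack of reads cannot be told apart from its absence.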
